A study of Mus musculus with 24 samples.

Results

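Akr1d1, Cyp2f2, Thrb, Pik3c2g and Akr1cl are 5 genes linked to the X-zone of the mouse adrenal cortex, taken without Akr1c18, the best known gene of that zone. They were chosen by symbol, with earlier results of these data known. They are 5 of the 21957 genes with a single symbol in the deposited expression table. They are 7 of its 32202 probe sets, since Cyp2f2 and Akr1cl each have 2. Akr1d1, Cyp2f2, Thrb and Akr1cl passed the filter on dim genes (a log2 signal over 5 in at least 4 of the 24 arrays), which left 14411 genes to test. Pik3c2g was over 5 in 1 array and did not pass it.

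The X-zone is the innermost layer of the cortex in young mice and descends from the fetal cortex. It regresses in males at puberty under testicular androgens and in females during the first pregnancy, and it can return in males after castration. Akr1c18 RNA marks its cells in the postnatal gland.

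RNA of whole adrenal glands was taken from mice of mixed sv129 and C57Bl/6 descent at 7 months of age and hybridised to Affymetrix gene arrays, with 4 arrays in each of 6 groups. The groups were KO females and WT females, KO and WT males gonadectomised during the last 2 months (GDX), and KO and WT males with testes (intact). All KO mice had Prkar1a fl/fl, which lets Cre remove the regulatory subunit that restrains protein kinase A, with 1 allele of Cre in the Cyp11b2 locus, active in aldosterone-making cells of the outer cortex and in their descendants. The controls differed between groups. WT females were Prkar1a fl/+ with Cre, and WT intact males were Prkar1a fl/fl without Cre. WT GDX array 1 had neither floxed allele nor Cre, arrays 2 and 3 had Cre and no floxed allele, and array 4 had Cre and Prkar1a fl/+. WT intact males thus differed in control genotype from WT GDX males and from WT females. In those comparisons the control genotype cannot be told apart from gonadectomy or sex. WT females also differed in control genotype from WT GDX arrays 1 to 3. Between WT females and WT GDX males the control genotype thus cannot be told apart from sex and gonadectomy either. In KO against WT intact males the presence of Cre cannot be told apart from Prkar1a loss. In females KO and WT both carried Cre, and WT females had Prkar1a fl/+. KO against WT is therefore not the same genotype contrast in females, GDX males and intact males. All arrays were labelled mTmG/mTmG, a reporter that changes colour where Cre acts, apart from WT GDX array 2, labelled mTmG/+. The titles call the arrays of a group biological replicates. Nothing in the labels says whether arrays came from single or pooled animals, so p-values measure the spread between these samples.

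Prkar1a averaged 7.08 ± 0.32 in KO females and 8.51 ± 0.05 in WT females (log2 signal, SD, n = 4 each). It averaged 7.60 ± 0.30 in KO GDX males and 8.79 ± 0.16 in WT GDX males, and 7.89 ± 0.69 in KO intact males and 8.82 ± 0.10 in WT intact males. All 10 adrenal marker genes examined were over 5 in every group. Akr1d1 is also a liver gene and Cyp2f2 a lung and liver gene, so markers of these tissues were read. The mean of 9 liver markers spanned 4.69 to 5.66 in WT females and 4.64 to 4.83 in WT intact males, and the lung club cell marker Scgb1a1 averaged between 3.11 and 3.27 in all groups. Of 5 liver markers tested, 2 rose in WT females against WT intact males: Alb, at 4.94, 6.49, 8.82 and 7.21 in WT females, by 1.81 (adjusted p = 0.0114), and Ahsg by 0.78 (adjusted p = 0.00408). Over the same 4 WT female arrays Akr1d1 spanned 11.91 to 12.08, and Cyp2f2 was lowest, at 8.67, in array 3, where Alb was highest. Ahsg was also called in WT GDX against WT intact males (0.65, adjusted p = 0.0258), Apoa2 in KO females against KO intact males (0.25, adjusted p = 0.0126), and no liver marker in KO GDX against KO intact males. Alb was also higher in WT females than in WT GDX males (2.02, adjusted p = 0.0264), and it fell by 1.15 in KO females against WT females (adjusted p = 0.0491). The part of liver RNA in the results was not tested further.

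Akr1d1, Cyp2f2 and Thrb were each higher in females and in GDX males of both genotypes than in intact males of both genotypes. Cyp2f2 averaged 7.55 and 8.06 in KO and WT GDX males, below its 9.23 and 9.34 in KO and WT females. No array of an intact male reached the lowest array of the other 4 groups for Akr1d1, Thrb or Cyp2f2, the last on its brighter probe set. The share of all genes for this joint statement was not computed. Within a genotype, 9.29% to 36.6% of all genes did not overlap, in either direction, between intact males and GDX males or females. Akr1cl and Pik3c2g also had their lowest group means in intact males, Akr1cl on its brighter probe set, but by little. Akr1cl averaged 11.41 and 11.50 in KO and WT intact males, against 11.55 to 11.73 in the other groups. It was thus bright in every group, which goes against the label of an X-zone readout for this gene. Pik3c2g averaged 4.16 and 4.09 in KO and WT intact males, against 4.36 to 4.68 elsewhere, and was too dim throughout to be read for or against that label. None of the 4 tested members passed the test between KO and WT in females, GDX males or intact males.

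**Figure D1:**
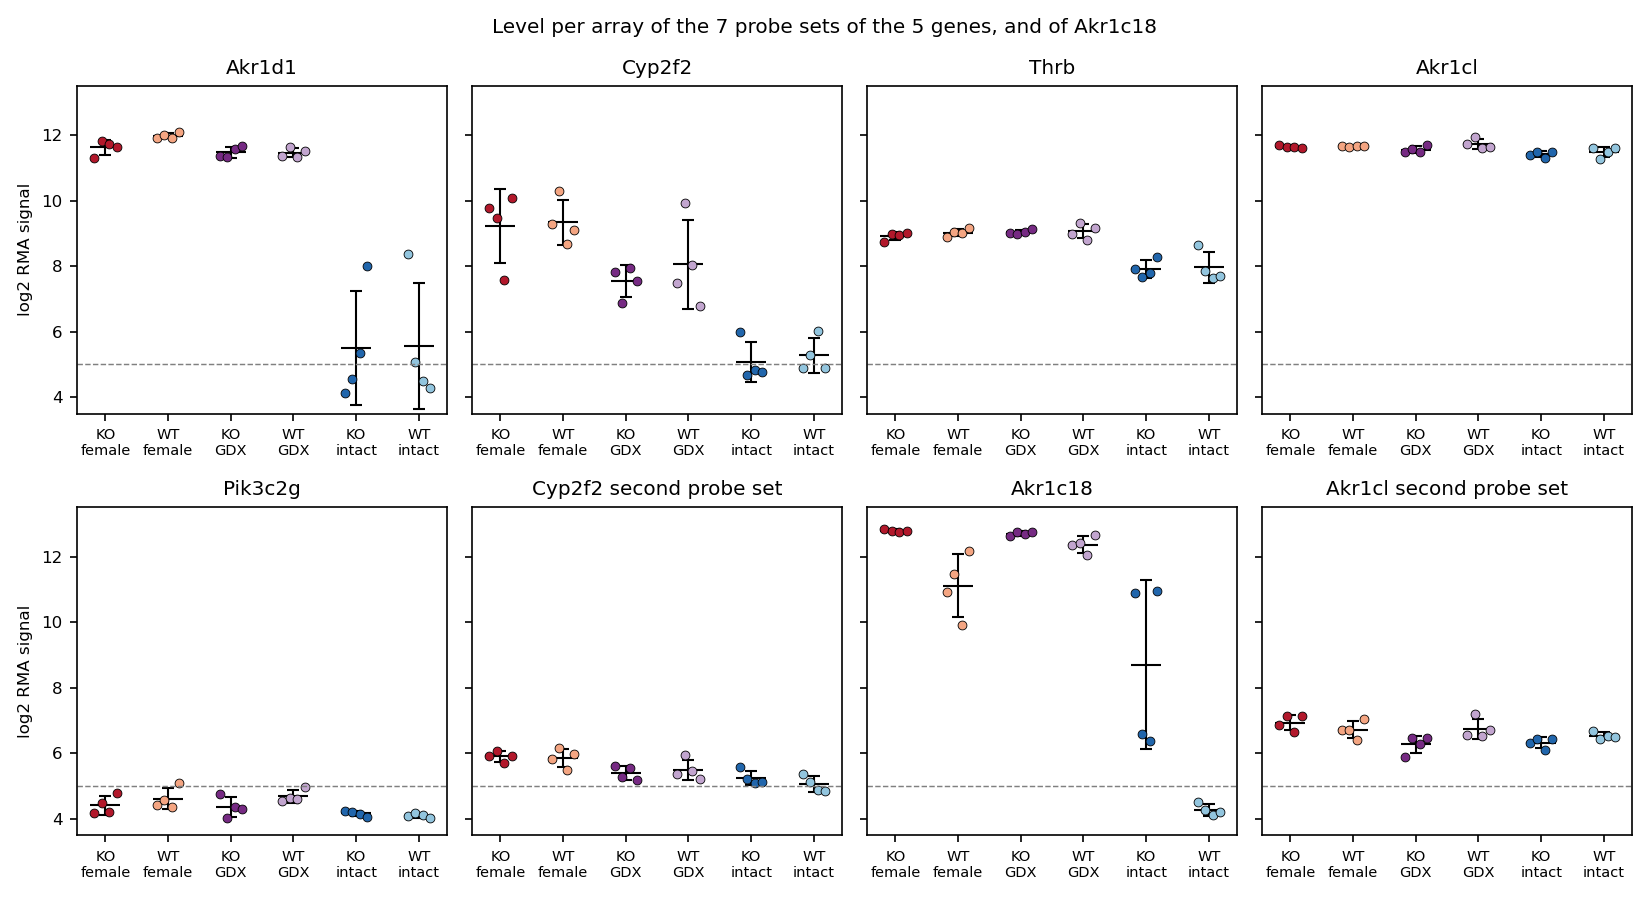
Log2 signal per probe set in the 24 arrays (vertical axis, log2 RMA signal), by group, for the 5 genes and Akr1c18, with 1 point per array, bars at the mean ± SD (n = 4) and a dashed line at the filter level of 5. Akr1d1 lay between 11.31 and 12.08 in females and GDX males and at or under 8.38 in intact males, while the brighter Akr1cl probe set stayed between 11.28 and 11.93 in all groups.

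Promoter windows of Akr1d1, Cyp2f2 and Thrb are shown to let their start regions be compared. They run from 250 bases before to 50 bases after the gene start (RefSeq, GRCm38.p6), with the nuclear receptor motif AGGTCA in capitals, read on both strands, so that a site on the minus strand appears as TGACCT. The Akr1d1 window lies at chr6:37529923-37530222 on the plus strand, that of Cyp2f2 at chr7:27119705-27120004 on the plus strand, and that of Thrb, at the first of its 2 listed starts, at chr14:17660710-17661009 on the plus strand.
Akr1d1: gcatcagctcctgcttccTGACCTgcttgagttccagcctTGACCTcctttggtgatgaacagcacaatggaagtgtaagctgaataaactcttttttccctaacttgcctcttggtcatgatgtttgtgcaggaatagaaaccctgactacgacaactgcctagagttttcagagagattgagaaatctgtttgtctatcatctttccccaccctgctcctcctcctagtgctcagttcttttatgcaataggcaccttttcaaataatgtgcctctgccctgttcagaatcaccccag
Cyp2f2: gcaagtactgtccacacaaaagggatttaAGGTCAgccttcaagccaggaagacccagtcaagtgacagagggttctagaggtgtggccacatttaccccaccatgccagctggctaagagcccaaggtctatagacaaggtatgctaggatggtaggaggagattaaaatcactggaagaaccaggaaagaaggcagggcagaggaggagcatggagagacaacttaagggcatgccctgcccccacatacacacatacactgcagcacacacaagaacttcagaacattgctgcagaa
Thrb: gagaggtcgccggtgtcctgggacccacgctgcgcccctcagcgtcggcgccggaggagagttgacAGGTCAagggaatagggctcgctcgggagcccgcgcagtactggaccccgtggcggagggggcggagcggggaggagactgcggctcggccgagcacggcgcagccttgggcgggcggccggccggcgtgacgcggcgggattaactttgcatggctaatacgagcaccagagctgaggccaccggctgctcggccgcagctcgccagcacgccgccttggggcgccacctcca
The Akr1d1 window held this motif at -232 and -210, on the minus strand, the Cyp2f2 window at -221 and the Thrb window at -184, both on the plus strand. The second Thrb start and the windows of Pik3c2g and Akr1cl held none. In the table of 32851 promoter windows, 16.3% held AGGTCA. The longer SF-1 element CAAGGTCA, which contains AGGTCA and was held by 1.56% of windows, was in none of the members' windows. A match is a description of the letters and not a measured binding site.

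Akr1d1 encodes steroid 5-beta-reductase, which reduces the double bond of 3-keto steroids and serves bile acid synthesis in liver. In KO GDX males it read 11.35, 11.33, 11.58 and 11.67, against 4.13, 4.55, 5.36 and 7.99 in KO intact males. In WT GDX males it read 11.36, 11.65, 11.34 and 11.52, against 8.38, 5.08, 4.51 and 4.27 in WT intact males. The 2 groups did not overlap in either genotype, and both intact groups held 1 array well above the other 3. Akr1d1 was 5.91 ± 0.69 higher in WT GDX than in WT intact males (limma log2 change ± SE, adjusted p = 2.57e-05, 60.1-fold), second in size of 14411 genes. These WT groups also differed in control genotype. In KO males Akr1d1 rose by 5.98 ± 0.69 after gonadectomy (adjusted p = 1.83e-05, 63-fold), the largest of 14411. Since 2 of 4 arrays of each intact group were under 5, the level there is dim and the size of the change uncertain. The SE of 0.69 is shared over the 6 groups. The SD of Akr1d1 was 1.91 and 1.73 in WT and KO intact males, against 0.15 and 0.17 in WT and KO GDX males. For comparisons with intact males the shared SE may thus be too small. Because whole glands were used, fewer cells of a type and less RNA per cell cannot be told apart.

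Akr1d1 read 11.31, 11.81, 11.73 and 11.63 in KO females, and 11.93, 12.00, 11.91 and 12.08 in WT females. Every female array stood above every intact male array. Against intact males Akr1d1 rose by 6.12 ± 0.69 in KO females (adjusted p = 7.42e-07, 69.4-fold) and by 6.42 ± 0.69 in WT females (adjusted p = 3.38e-06, 85.6-fold). Between females and GDX males the change did not pass the test: it was 0.14 ± 0.69 in KO (adjusted p = 0.917) and 0.51 ± 0.69 in WT (adjusted p = 0.849), with 95% intervals of -1.29 to 1.57 and -0.92 to 1.94. The SE of 0.69 comes from a spread shared over the 6 groups. The SD of Akr1d1 was 1.91 in WT intact males, against 0.08 in WT females and 0.15 in WT GDX males. All 4 WT females lay above all 4 WT GDX males (exact permutation p = 0.0286, the smallest that 4 against 4 can give). Between these groups 7.6% of all genes did not overlap in either direction. The change was called with those groups fitted alone (adjusted p = 0.0368). WT females and most WT GDX males also differed in control genotype.

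Cyp2f2, a cytochrome P450 best known from lung club cells, where it activates naphthalene, showed the same direction with a wider spread. Its brighter probe set read 7.83, 6.87, 7.94 and 7.56 in KO GDX males, against 6.00, 4.68, 4.83 and 4.78 in KO intact males. It read 7.48, 9.94, 8.05 and 6.77 in WT GDX males, against 4.89, 5.30, 6.03 and 4.90 in WT intact males. GDX and intact arrays did not overlap, and WT GDX array 2 stood far above the rest of its group. The gene rose by 2.48 ± 0.56 in KO GDX males (adjusted p = 0.00516, 5.57-fold) and by 2.78 ± 0.56 in WT GDX males (adjusted p = 0.00651, 6.87-fold). Since 3 of 4 KO intact and 2 of 4 WT intact arrays were under 5, the sizes of the Cyp2f2 changes against intact males are uncertain too. The WT call was lost when only the WT GDX and WT intact arrays were fitted (adjusted p = 0.0578).

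In females Cyp2f2 read 9.76, 9.48, 7.58 and 10.08 in KO and 9.29, 10.29, 8.67 and 9.11 in WT. It was 4.15 ± 0.56 higher in KO females than in KO intact males (adjusted p = 6.03e-06, 17.8-fold) and 4.06 ± 0.56 higher in WT females than in WT intact males (adjusted p = 6.68e-05, 16.7-fold). Females exceeded GDX males by 1.68 ± 0.56 in KO (adjusted p = 0.0414) and 1.28 ± 0.56 in WT (adjusted p = 0.379). KO female array 3, at 7.58, fell within the KO GDX range, so these groups overlapped. The KO call was lost in 7 of 8 fits that left out 1 array of the pair of groups (adjusted p between 0.00635 and 0.133) and held when KO female array 3 was left out.

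The second probe set of Cyp2f2 was dimmer, between 4.85 and 6.14. It rose in KO females against KO intact males by 0.65 ± 0.16 (adjusted p = 0.00266) and in WT females against WT intact males by 0.80 ± 0.16 (adjusted p = 0.00271), with no overlap in either. It did not pass the test between GDX and intact males (0.15 ± 0.16 in KO, adjusted p = 0.583, and 0.44 ± 0.16 in WT, adjusted p = 0.137). KO females exceeded KO GDX males by 0.50 ± 0.16 on this probe set (adjusted p = 0.0351), a call lost in 5 of 8 fits that left out 1 array (adjusted p between 0.0277 and 0.105). The 2 probe sets had the same sign in these comparisons, with smaller changes on the dimmer one.

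Thrb encodes thyroid hormone receptor beta, a ligand-activated transcription factor that in mice is expressed in the X-zone and binds the hormone T3. It read 9.02, 8.99, 9.06 and 9.14 in KO GDX males, against 7.91, 7.68, 7.79 and 8.29 in KO intact males. It read 8.97, 9.31, 8.81 and 9.16 in WT GDX males, against 8.64, 7.86, 7.64 and 7.70 in WT intact males. GDX arrays stood above intact arrays without overlap, although WT intact array 1, the highest of its group, came within 0.17 log2 of the lowest WT GDX array. Thrb rose by 1.14 ± 0.16 in KO GDX males (adjusted p = 0.000126, 2.2-fold) and by 1.10 ± 0.16 in WT GDX males (adjusted p = 0.000444, 2.15-fold). In KO females it read 8.72, 8.98, 8.95 and 9.02 and in WT females 8.90, 9.04, 9.01 and 9.16, again clear of intact males. It rose by 1.00 ± 0.16 in KO females (adjusted p = 4.84e-05) and by 1.06 ± 0.16 in WT females (adjusted p = 0.00022) against intact males. Females and GDX males differed by -0.13 ± 0.16 in KO (adjusted p = 0.623) and -0.04 ± 0.16 in WT (adjusted p = 0.967).

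Akr1cl, an aldo-keto reductase of the family that reduces ketosteroids and other carbonyl compounds, read 11.48, 11.58, 11.47 and 11.69 in KO GDX males, against 11.38, 11.47, 11.31 and 11.50 in KO intact males. It read 11.74, 11.93, 11.61 and 11.65 in WT GDX males, against 11.60, 11.28, 11.49 and 11.61 in WT intact males. The differences were small: 0.14 ± 0.08 in KO (adjusted p = 0.224) and 0.24 ± 0.08 in WT (adjusted p = 0.0787). In KO females it read 11.70, 11.63, 11.65 and 11.61, which was 0.23 ± 0.08 above KO intact males (adjusted p = 0.0162, 1.18-fold) and without overlap. In WT females it read 11.67, 11.63, 11.65 and 11.68, 0.16 ± 0.08 above WT intact males (adjusted p = 0.206). On this probe set neither WT females nor WT GDX males overlapped WT intact males (exact permutation p = 0.0286 each). The gap was 0.020 log2 for WT females and 6.8e-05 log2 for WT GDX males, where 15.1% and 9.29% of all genes did not overlap. The change in WT GDX males was called with array weights (adjusted p = 0.0493) and with the adipocyte covariate (adjusted p = 0.0279). The call in KO females was lost without KO intact array 3 (adjusted p = 0.0611) and after another round of quantile normalization (adjusted p = 0.0808).

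The second Akr1cl probe set spanned 5.88 to 7.19. It rose in KO females by 0.61 ± 0.16 against KO intact males (adjusted p = 0.00354) and by 0.67 ± 0.16 against KO GDX males (adjusted p = 0.00566). In KO GDX males it read 5.88, 6.45, 6.28 and 6.46, against 6.54, 7.19, 6.52 and 6.72 in WT GDX males. These groups did not overlap, like those of 9.62% of all genes, and the change of -0.48 ± 0.16 did not pass the test (adjusted p = 0.0881).

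Pik3c2g encodes a class II phosphoinositide 3-kinase, known from liver. It lay between 4.01 and 5.08 in all 24 arrays, at a level where the array hardly reads a gene. In the fit without a filter it was 0.59 ± 0.16 higher in WT GDX males, at 4.54, 4.62, 4.59 and 4.97, than in WT intact males, at 4.09, 4.16, 4.10 and 4.01 (adjusted p = 0.0441). That call was lost in 7 of 8 fits that left out 1 array (adjusted p between 0.0466 and 0.13). In KO GDX males the change was 0.20 ± 0.16 (adjusted p = 0.515). WT females were 0.52 ± 0.16 above WT intact males (adjusted p = 0.061) and KO females 0.25 ± 0.16 above KO intact males (adjusted p = 0.257).

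The count of members is given beside the share of all 14411 genes. The members were chosen with earlier results of these data known, so these counts are a description and no test of them. Over the 4 tested members, 3 were higher in WT GDX than in WT intact males, where 4.5% of all genes tested were called in either direction and 1.94% were called higher. The same 3 were higher in KO GDX than in KO intact males, where 15.4% were called and 6.85% higher. Against intact males 3 were higher in WT females (7.75% of genes called, 3.73% higher) and all 4 in KO females (41% called, 17.8% higher). Akr1d1 ranked 3 and Cyp2f2 7 by size among 14411 genes in WT females against WT intact males, and Thrb ranked 134, with the ranks of Akr1d1 and Cyp2f2 resting on intact arrays of which 2 of 4 were under 5. Between females and GDX males 1 member was called in KO (18.4% called) and 0 in WT (0.902% called). For KO against WT by limma 0 members were called in females (32.6% called), 0 in intact males (0.111% called) and 0 in GDX males (4.23% called). At an unadjusted p under 0.05 the count of the 4 members was 0, 0 and 1 (Akr1cl, in GDX males) for these 3 comparisons, against 42.4%, 7.49% and 19.7% of all genes. Groups that did not overlap, in either direction, are a further background: 9.29% of genes between GDX and intact WT males and 19% in KO males, and 15.1% between WT females and WT intact males and 36.6% in KO. The share was 7.6% between WT females and WT GDX males and 20.3% in KO, 32.8% between KO and WT females and 9.62% between KO and WT GDX males.

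Marker lists of other cell types moved with several of these comparisons, among them those that hold KO females. The mean of 6 zona glomerulosa markers, the outer zone where Cre acts, was 7.49 to 8.13 in KO females, 8.21 to 8.99 in KO GDX males and 8.91 to 9.92 in KO intact males, and all 6 fell in KO females against KO intact males and against WT females (9.57 to 9.92). It was 9.25 to 9.73 in WT GDX males and 9.78 to 10.17 in WT intact males. The endothelial mean was 8.90 to 9.15 in KO females, 8.98 to 9.15 in KO GDX males and 9.23 to 9.52 in KO intact males, and the zona fasciculata mean 11.88 to 12.02 in KO females, 11.68 to 11.89 in KO GDX males and 11.51 to 11.64 in KO intact males. The part of these 3 lists in the members' changes was not tested. The mean of 9 medulla markers spanned 9.01 to 9.59 in KO females and 10.13 to 10.40 in KO intact males, with no overlap, and 9.69 to 10.08 in WT females and 9.79 to 10.21 in WT intact males, which overlapped. With that mean as a covariate, KO females against KO intact males kept the call of Akr1d1 (5.41, adjusted p = 0.0105) and lost those of Cyp2f2 (2.57, adjusted p = 0.0829), Thrb (0.74, adjusted p = 0.115) and Akr1cl (0.18, adjusted p = 0.467), as well as those of the second probe sets of Cyp2f2 (0.22, adjusted p = 0.664) and Akr1cl (0.0066, adjusted p = 0.991). Since the medulla means of KO females and KO intact males did not overlap, that fit cannot tell medulla RNA apart from the group. The SE of Cyp2f2 was 0.90 in it, against 0.56 without the covariate. No conclusion is drawn from the calls kept or lost there. The Akr1d1, Cyp2f2 and Thrb calls in WT females and in GDX males of both genotypes held with the medulla covariate, Cyp2f2 in KO GDX males at 2.01 (adjusted p = 0.0299). Between KO females and KO GDX males neither list overlapped: the medulla mean was 9.01 to 9.59 in KO females and 9.89 to 10.24 in KO GDX males, and the mean of 9 adipocyte markers 7.60 to 8.36 in KO females and 8.96 to 9.44 in KO GDX males. The Cyp2f2 call there was lost with the medulla covariate (0.57, adjusted p = 0.732) and held with the adipocyte covariate (2.60, adjusted p = 0.0243). The calls of both second probe sets there were lost with either. Without overlap of either mean, the fits of KO females against KO GDX males cannot tell these tissues apart from the group. Against KO intact males the adipocyte mean was 7.60 to 8.36 in KO females and 7.77 to 8.98 in KO intact males. With the adipocyte mean as covariate Akr1d1, Cyp2f2 and Thrb stayed called in all 4 comparisons with intact males, and Akr1cl in KO females was not called (adjusted p = 0.0776). Between KO and WT females the medulla ranges, 9.01 to 9.59 in KO and 9.69 to 10.08 in WT, did not overlap either, so the same limit holds there. The part of these tissues in the results was not tested further.

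**Figure D2:**
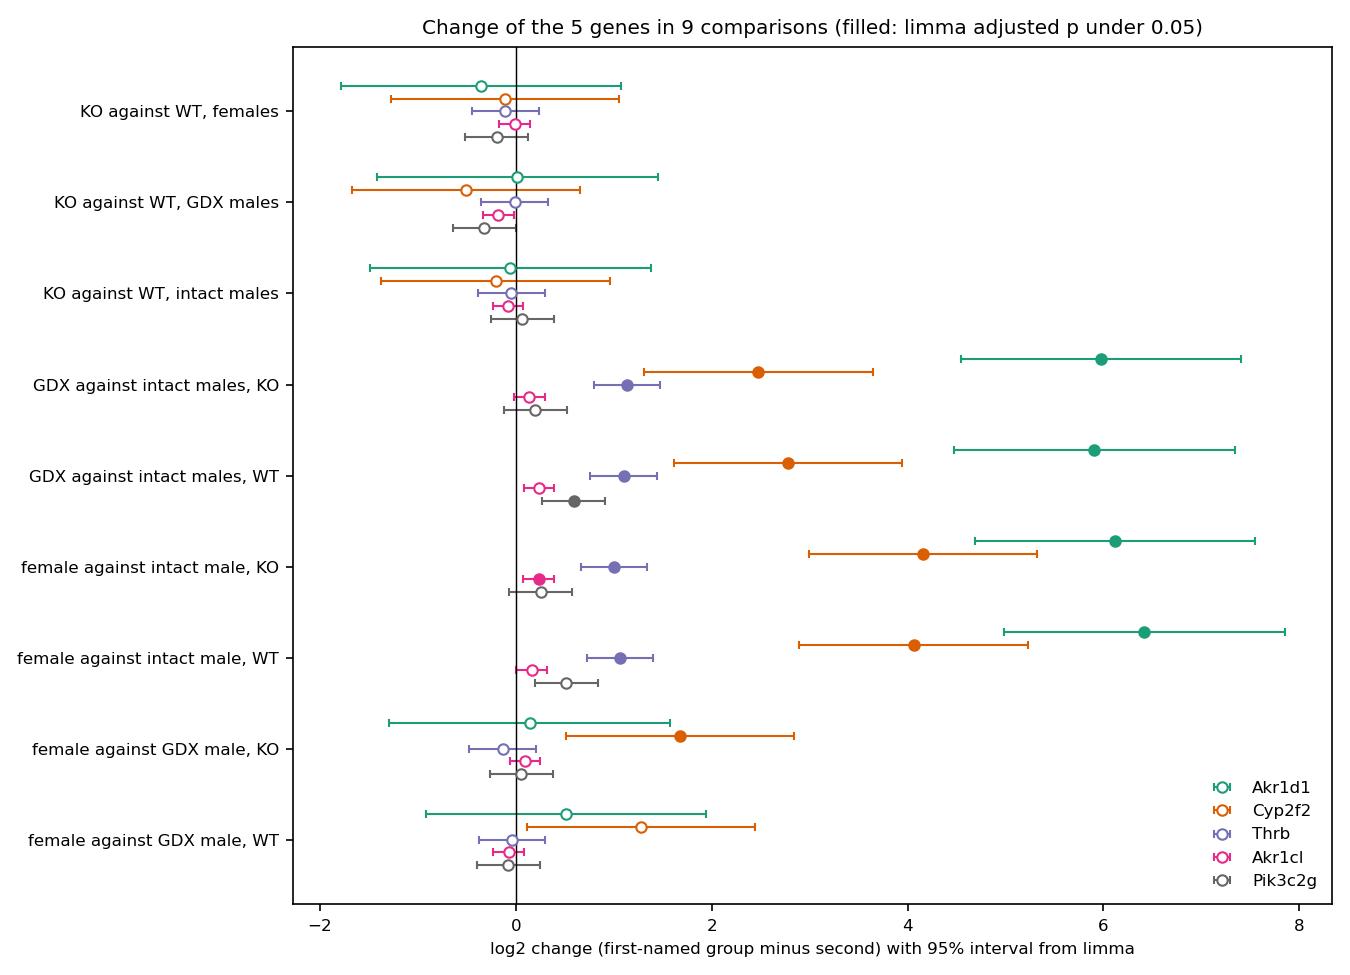
Log2 change with its 95% interval for the members (horizontal axis, log2 change) in 9 comparisons, with filled points where the limma adjusted p is under 0.05. The changes of Akr1d1, Cyp2f2 and Thrb in the 4 comparisons with intact males lie right of 0, and those of KO against WT lie around 0.

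The KO minus WT value of Akr1d1 in females was -0.36 ± 0.69 (adjusted p = 0.738, 95% interval -1.79 to 1.08). The KO female arrays, with 11.81 as their highest, all lay below the WT female arrays, with 11.91 as their lowest (exact permutation p = 0.0286). Of all genes 18.8% lay lower without overlap in this comparison, and 32.8% did not overlap in either direction. With females fitted alone this change was -0.36 ± 0.11 and was called (adjusted p = 0.0316). In intact males the change of Akr1d1 was -0.05 ± 0.69 (adjusted p = 0.996) with an interval of -1.49 to 1.38, and in GDX males 0.01 ± 0.69 (adjusted p = 0.994) with an interval of -1.42 to 1.45. These intervals rest on a spread shared over the 6 groups. The SD of Akr1d1 was 1.91 and 1.73 in WT and KO intact males. It was 0.08 and 0.22 in WT and KO females, and 0.15 and 0.17 in WT and KO GDX males. The intervals do not show that KO and WT were alike.

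The KO minus WT values of Cyp2f2 were -0.11 ± 0.56 in females, -0.51 ± 0.56 in GDX males and -0.21 ± 0.56 in intact males (adjusted p = 0.903, 0.681 and 0.972). The KO minus WT values of Thrb were -0.11 ± 0.16, -0.01 ± 0.16 and -0.05 ± 0.16 in the same order (adjusted p = 0.665, 0.982 and 0.977). Its 95% intervals, between -0.45 and 0.33, also rest on the spread shared over the 6 groups. The SD of Thrb was 0.46 and 0.26 in WT and KO intact males, and between 0.06 and 0.22 in the other groups. With 1 array left out the intact male value of Thrb ran from -0.17 to 0.18. These intervals do not show that KO and WT were alike. The KO minus WT values of Akr1cl on its brighter probe set were -0.01 ± 0.08, -0.18 ± 0.08 and -0.08 ± 0.08 (adjusted p = 0.937, 0.19 and 0.883). On its second probe set they were 0.22 ± 0.16, -0.48 ± 0.16 and -0.21 ± 0.16 (adjusted p = 0.308, 0.0881 and 0.837). Those of Pik3c2g were -0.19 ± 0.16, -0.32 ± 0.16 and 0.07 ± 0.16 (adjusted p = 0.438, 0.333 and 0.985). No member passed the interaction test of the genotype effect, between females and intact males (16% of genes called) or between GDX and intact males (0.0278% called). Control genotypes differed between these groups, so these tests compare unlike KO minus WT contrasts and cannot separate sex or gonadectomy from control genotype.

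Akr1c18, which inactivates progesterone and is the gene usually used to mark the X-zone, rose in KO intact males, where the members did not pass the test. It read 10.90, 6.57, 6.36 and 10.96 in KO intact males, against 4.51, 4.26, 4.10 and 4.19 in WT intact males, a change of 4.43 ± 0.73 (adjusted p = 0.0103) whose size is uncertain, since all 4 WT intact arrays were under 5. All 4 KO arrays stood above all 4 WT arrays, like those of 2.28% of all genes, and 4.45% did not overlap in either direction. The Akr1c18 call was lost without KO intact array 1 (adjusted p = 0.0672) and with intact males fitted alone (adjusted p = 0.291). Of the 2 KO intact arrays with high Akr1c18, 1 also had the highest Akr1d1 of its group and 1 the lowest. Array 1 had Akr1c18 at 10.90 with Akr1d1 at 4.13, the lowest Akr1d1 of all 24 arrays, and Thrb at 7.91. Array 4 had Akr1c18 at 10.96 with Akr1d1 at 7.99 and Thrb at 8.29. Conversely WT intact array 1 had Akr1d1 at 8.38 and Thrb at 8.64 with Akr1c18 at 4.51. Prkar1a read 6.89, 8.08, 8.47 and 8.13 in KO intact arrays 1 to 4, lowest in array 1.

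In females Akr1c18 read 12.86, 12.77, 12.75 and 12.79 in KO and 10.91, 11.47, 9.91 and 12.18 in WT, a change of 1.67 ± 0.73 that did not pass the limma test (adjusted p = 0.0855). The KO and WT female arrays did not overlap (exact permutation p = 0.0286), where 32.8% of all genes did not overlap in either direction. The change was called with females fitted alone (adjusted p = 0.0113) and with array weights (1.83, adjusted p = 0.0394).

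**Figure D3:**
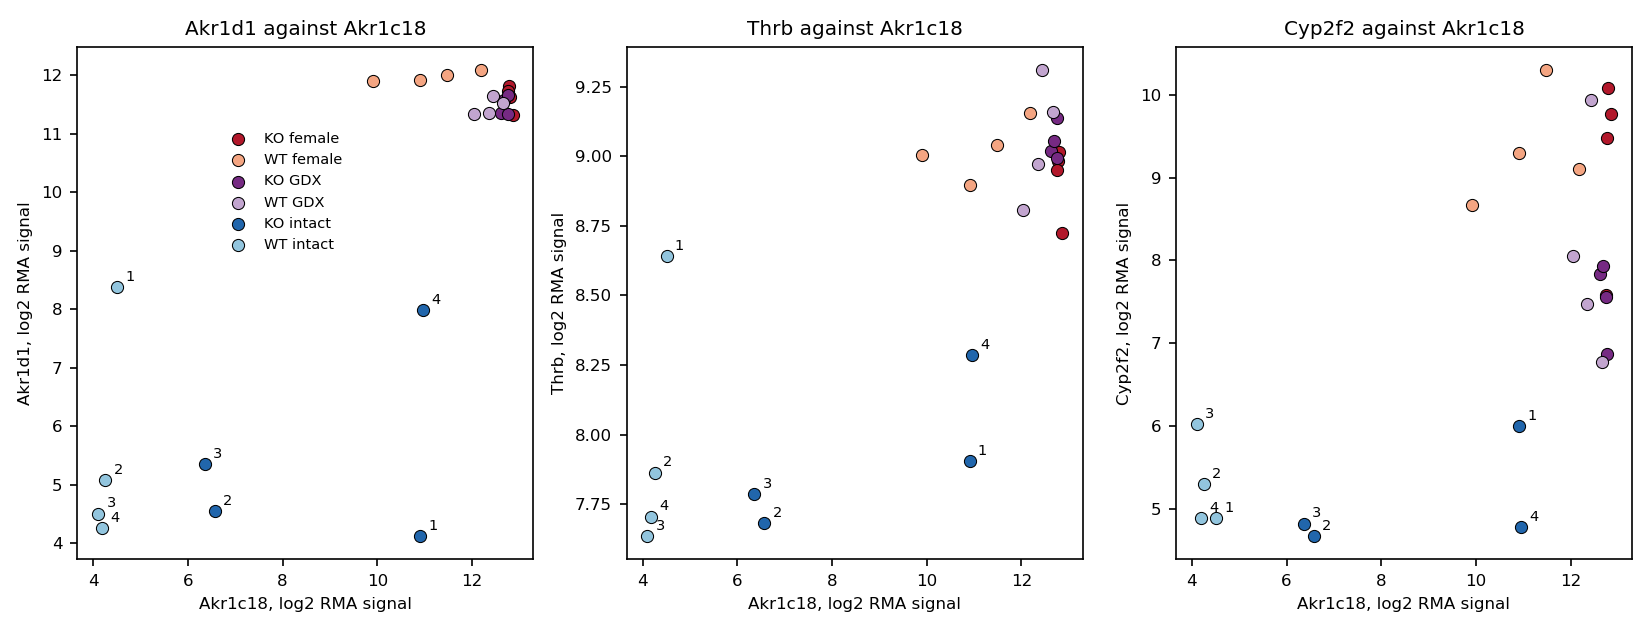
Akr1d1, Thrb and Cyp2f2 (vertical axes, log2 RMA signal) against Akr1c18 (horizontal axis, log2 RMA signal) in the 24 arrays, with replicate numbers beside the intact male points. KO intact arrays 1 and 4 share an Akr1c18 level near 11 and differ in Akr1d1, at 4.13 and 7.99.

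Within groups, Thrb and Akr1d1 deviated together. Their deviations from the group means correlated with Pearson's r of 0.858 and Spearman's rho of 0.837 over 24 arrays (within-group permutation p = 0.00304 and 0.00022, adjusted 0.0284 and 0.00616 over 28 relations). Without the 2 arrays farthest out, WT intact array 1 and KO intact array 4, r was 0.642. The relations of Cyp2f2 did not pass the test: its r with Akr1d1 was -0.168 (permutation p = 0.29) and with Thrb -0.0075 (permutation p = 0.972). The relation of Akr1c18 to Akr1d1 had an r of 0.286 (permutation p = 0.619) and of 0.018 without KO intact arrays 3 and 4. Thrb also deviated with Akr1c18 (r = 0.432, rho = 0.669, adjusted permutation p = 0.0284 and 0.0175, r = 0.301 without KO intact arrays 3 and 4) and with the second Akr1cl probe set (r = 0.452, rho = 0.567, adjusted permutation p = 0.0351 and 0.0192, r = 0.473 without its 2 farthest arrays). The 2 probe sets of Cyp2f2 had an r of 0.689 and those of Akr1cl 0.542.

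**Figure D4:**
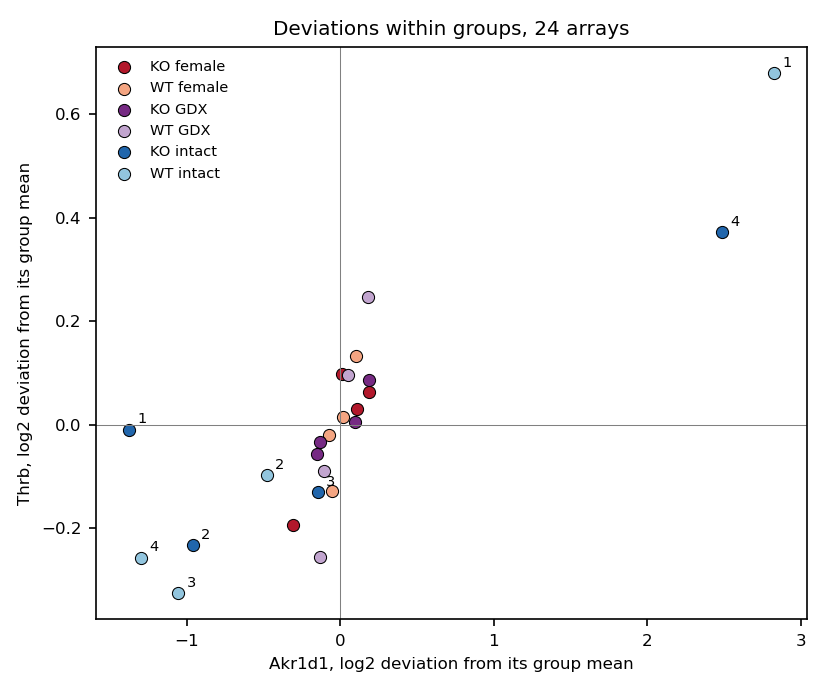
Deviation of Thrb (vertical axis, log2) against that of Akr1d1 (horizontal axis, log2) from the mean of the array's own group, 24 arrays. WT intact array 1 and KO intact array 4 lie farthest to the upper right, and r was 0.858 with them and 0.642 without them.

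The genes whose levels ran most like each member over the 24 arrays are given by Pearson's r, as a description in which the arrays of a group share their condition. For Akr1d1 they were Lrrn1 (0.979), Thrb (0.973), Cdk8 (0.956), Fam210a (0.953) and Prr16 (0.951). Lrrn1 averaged 10.26 in KO GDX males against 8.62 in KO intact males, and 10.33 in WT GDX males against 8.56 in WT intact males. For Thrb they were Lrrn1 (0.979), Akr1d1, Serpinb1a (0.961), Ajap1 (0.953) and Cd1d1 (0.950). For Cyp2f2 a different set led: Cadps2 (0.946), Paics (0.926), Sbk1 (0.922), Larp1b (0.911) and Lama4 (0.905). Lama4 averaged 9.13 in KO females against 7.06 in KO intact males and 8.18 in KO GDX males, so its order over groups was like that of Cyp2f2. For Akr1cl the highest r was 0.828, with Tarsl2, and for Pik3c2g 0.813, with Zfp59.

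The relatives of the members are set against all genes, of which 4.5% were called after gonadectomy in WT males and 15.4% in KO males. These lists, and that of zone regulators below, were chosen with earlier results of these data known. Their counts are therefore a description and no test. Of the other aldo-keto reductases and steroid 5-alpha-reductases 6 were bright enough to test, and 0 were called after gonadectomy in WT males (median change 0.0058, against -0.012 over all genes) and 1 in KO males, Akr1b10 (-0.51 ± 0.13, adjusted p = 0.0125). Of 9 other CYP2 genes 0 were called in WT GDX males (median 0.19) and 1 in KO GDX males, Cyp2c55 (1.09 ± 0.34, adjusted p = 0.0356). Of 12 genes of thyroid hormone signalling 0 were called in WT GDX males (median 0.011) and 1 in KO GDX males, the coactivator Ncoa1 (-0.29 ± 0.07, adjusted p = 0.00752). Of 11 phosphoinositide 3-kinase subunits, Pik3r1 rose by 0.48 ± 0.12 (adjusted p = 0.0247) and Pik3r3 fell by 0.49 (adjusted p = 0.013) in WT GDX males, with a list median of 0.0010, and the same pair was called in KO GDX males. In KO against WT females 5 of the 12 thyroid genes fell and 0 rose, where 18.7% of all genes fell and 32.6% were called (median -0.21, against -0.019 over all genes), among them Thrsp (-1.90 ± 0.46, adjusted p = 0.00287) and Tshr (-1.40 ± 0.34, adjusted p = 0.00352). The adipocyte marker mean was 7.60 to 8.36 in KO females and 8.69 to 9.51 in WT females, without overlap, and its part in these changes was not tested.

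Among 19 tested regulators of the zone, such as Nr0b1 (Dax1), Nr5a1 (SF-1) and activin pathway genes, 3 rose and 0 fell in WT GDX males against WT intact males (median 0.13), where 1.94% of all genes rose: Cited2 by 0.63 ± 0.11 (adjusted p = 0.00261), Nr5a1 by 0.45 ± 0.13 (adjusted p = 0.0439) and Smad2 by 0.34 ± 0.08 (adjusted p = 0.0128). In KO GDX males 2 rose and 1 fell, where 6.85% of all genes rose and 8.59% fell: Cited2 by 0.92 ± 0.11 (adjusted p = 3e-05), Smad2 by 0.27 ± 0.08 (adjusted p = 0.0189) and Inha, the inhibin alpha subunit, by -0.61 ± 0.12 (adjusted p = 0.00207). In WT females against WT intact males 6 rose and 0 fell, where 3.73% of all genes rose, led by Nr0b1, a nuclear receptor that represses others (2.60 ± 0.59, adjusted p = 0.00729), and Esr1 (0.76 ± 0.22, adjusted p = 0.0384). In KO females against KO intact males 5 rose and 6 fell, where 17.8% of all genes rose and 23.1% fell, with Nr0b1 up by 1.99 ± 0.59 (adjusted p = 0.01) and Inha changed by -1.19 ± 0.12 (adjusted p = 2.49e-07). In KO against WT intact males, where 0.111% of all genes were called, Inha alone was called (0.77 ± 0.12, adjusted p = 0.00774).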

How the data were processed

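The deposited table holds log2 RMA signals, background-corrected, normalized and summarised per probe set by the authors. The submitters' processing notes name RMA, and its software and genome build are not given. Per the labels' protocols, total RNA was labelled with the Affymetrix WT PLUS kit. RMA pulls arrays to 1 distribution (medians 5.2 to 5.29), so changes are relative to the bulk of genes.

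Of 32202 probe sets, 22943 carried 1 gene symbol in the platform annotation, 1731 several and 7528 none, and the last kinds were left out. Each of 21957 genes was represented by its probe set with the highest mean. Genes with a log2 signal over 5 in at least 4 arrays were tested (14411). One limma 3.58.1 model (R 4.3.3) of the 6 group means over 24 arrays, with 18 residual and 3.41 prior degrees of freedom, gave 11 comparisons, with genes called under a threshold of 0.05 after Benjamini-Hochberg adjustment. Adjusted p-values without another tool named are from it. Second probe sets were fitted among all probe sets with 1 symbol, and Pik3c2g among all genes without the filter. Single values were also tested by exact two-sided permutation of 4 against 4 arrays. On simulated data for KO against WT females, 97% of changes of log2 1 and 100% of log2 2 were recovered, and 6.19% of calls were false. There 200 of 14411 genes were changed, with normal noise of 1 SD per gene in all groups. The recovery is an average over genes and does not describe Akr1d1 and Cyp2f2, whose SEs were 0.69 and 0.56. The number of arrays limits the precision, and no hybridisation or scan batch was available for a test here.

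The members, the 5 gene lists (aldo-keto and 5-reductases, CYP2, thyroid hormone signalling, phosphoinositide 3-kinases, zone regulators) and the marker lists were chosen with earlier results of these data known. Named genes are the members, the 5 genes with the highest r per member and up to 4 called genes per list and comparison, of which some are printed. Promoter windows came from RefSeq (GRCm38.p6), where all 5 members matched. Comparisons that share arrays (all intact males of a genotype, for example) are not independent. Labels number the replicates 1 to 4 in each group. Over 60 pairs of same-numbered arrays in different groups the median r of deviations was 0.0046 (-0.315 to 0.244), with 16 over 0.1, so the numbers were not taken to pair samples. Alternatives were the filter, the probe sets, normalization, the arrays fitted, moderation, array weights, the replicate block, medulla and adipocyte covariates, exact tests and leaving out each array.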

Additional observations from a re-analysis of the deposited data

Results flagged for a closer look

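Of 48 sets of 4 arrays (8 probe sets in 6 groups, Akr1c18 included), 1 held an array far from the others. Cyp2f2 read 6.00 in KO intact array 1, against 4.68, 4.83 and 4.78 in the other 3, and the gap to the nearest took 0.89 of the group's range, above Dixon's critical value for 4 arrays. Chance flags about 1 in 20 such sets. In the same array Akr1d1 was at 4.13 and Akr1c18 at 10.90.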

How the results depend on the processing

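Akr1d1, Cyp2f2 and Thrb kept their sign in all 4 comparisons with intact males under each alternative run. Akr1d1 stayed called there in each of them. Thrb lost its call with the medulla covariate in KO females, and Cyp2f2 lost its call there and in WT GDX males with only the groups compared. Over all member results and alternatives, the exact tests aside, 697 values kept sign and side of the threshold, 17 lost a call, 9 gained one and 25 changed sign. With 1 array left out the counts were 656, 20, 1 and 51. By the exact permutation test, unadjusted, 6 member results gained a call and 1 lost it (Cyp2f2 in KO females against KO GDX males, p = 0.0857). All sign changes were of values that did not pass the test, and their cause was not tested. Signal near the dim level limits what Pik3c2g and the second Cyp2f2 probe set can show.

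The replicate number as a block left 0 members called for KO against WT, 3 in GDX against intact WT males and 3 in KO males. It changed 1 call, that of the second Akr1cl probe set in KO GDX against WT GDX males (-0.48, adjusted p = 0.0471).

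For KO females against KO GDX males 0 members were called (1 before) with no filter, with only the groups compared, with trend and robust moderation and with the medulla covariate, and 0 to 1 with arrays left out. With only the groups compared 1 member was called for KO against WT females and 1 for WT females against WT GDX males. With the medulla covariate 1 was called for KO females against KO intact males.

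The counts of all genes called moved as follows. For KO against WT females, 4694 became 2508 with the medulla covariate and 3060 with the adipocyte covariate. For KO against WT intact males 16 became 10 with the medulla covariate and 0 with only the groups compared, where 1080 genes had an unadjusted p under 0.05 in the full model, and 4 to 24 with arrays left out. For KO against WT GDX males 609 became 49 with only the groups compared, 1200 with array weights and 214 to 1180 with arrays left out. For GDX against intact WT males 648 became 149 with only the groups compared and 292 to 788 with arrays left out. For GDX against intact KO males 2225 became 3599 with array weights, 1254 with the medulla covariate and 1374 to 2662 with arrays left out. For WT females against WT intact males 1117 became 1958 with array weights. For KO females against KO intact males 5906 became 1114 with the medulla covariate. For WT females against WT GDX males 130 became 78 with only the groups compared, 203 with array weights and 63 to 117 with arrays left out. For KO females against KO GDX males 2656 became 1747 with only the groups compared, 398 with the medulla covariate, 1359 with the adipocyte covariate and 1602 to 2755 with arrays left out. The KO effect in females minus intact males went to 264 genes with the medulla covariate, against 2302. That in GDX minus intact males, 4 genes, became 9 with only the groups compared, 45 with array weights, 7 with the adipocyte covariate and 2 to 88 with arrays left out.

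Sign changes with array weights were Cyp2f2 for KO against WT females (0.032), Akr1d1 (0.23) and Thrb (0.015) for KO against WT intact males, the second Akr1cl probe set for GDX against intact KO males (0.0056), and Akr1d1 (-0.16) and Thrb (-0.022) for the KO effect in GDX minus intact males. With the medulla covariate they were the second probe sets of Cyp2f2 (-0.19) and Akr1cl (-0.12) for KO against WT females; Akr1d1 (0.16), Cyp2f2 (0.26) and Thrb (0.032) for KO against WT intact males; Thrb (0.0044) for KO against WT GDX males; Akr1d1 (-0.36), Pik3c2g (-0.060) and Akr1c18 (-0.56) for KO females against KO GDX males. For the KO effect in females minus intact males they were Cyp2f2 (-1.26) and the second Akr1cl probe set (-0.086), and in GDX minus intact males Akr1d1 (-0.10) and Thrb (-0.028). With the adipocyte covariate they were Cyp2f2 (0.84) for KO against WT females, Akr1d1 (-0.073) for KO against WT GDX males, the second Akr1cl probe set (0.038) for GDX against intact KO males, and Akr1d1 (-1.14), Pik3c2g (-0.092), Akr1cl (-0.046) and Akr1c18 (-0.63) for KO females against KO GDX males, with Akr1cl (-0.056) for the KO effect in females minus intact males.

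With 1 array left out, KO against WT females gave Akr1cl -0.029 to 0.0033, Cyp2f2 -0.40 to 0.43 and its second probe set -0.077 to 0.14. KO against WT GDX males gave Akr1d1 -0.047 to 0.076, Cyp2f2 -0.94 to 0.12, its second probe set -0.18 to 0.065 and Thrb -0.096 to 0.071. KO against WT intact males gave Akr1d1 -0.88 to 0.89, Cyp2f2 -0.52 to 0.042 and Thrb -0.17 to 0.18, and the outer Akr1d1 values came without KO array 4 and without WT array 1. GDX against intact KO males gave the second Akr1cl probe set -0.13 to 0.072. KO females against KO GDX males gave Pik3c2g -0.071 to 0.19. WT females against WT GDX males gave the second Akr1cl probe set -0.14 to 0.12, Pik3c2g -0.23 to 0.021 and Thrb -0.12 to 0.044. The KO effect in females minus intact males gave Akr1d1 -1.24 to 0.53, Cyp2f2 -0.19 to 0.64 and Thrb -0.29 to 0.064, and in GDX minus intact males Akr1d1 -0.87 to 0.90, Cyp2f2 -0.73 to 0.32 and Thrb -0.19 to 0.16.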
